A study of Saccharomyces cerevisiae with 6 samples.

Results

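The genes of the Ran cycle were followed through barcode measurements of extended mRNAs in Saccharomyces cerevisiae. The list held 5 genes, SRM1, RNA1, GSP1, YRB1 and NTF2, and a gene was kept where a probe carrying its symbol had a value on at least 2 of the 6 arrays. The members were thus chosen by function and selected on the presence of a value, with the increases of SRM1 and RNA1 in both mutant pools already known. That left 2 genes, SRM1 (YGL097W) and RNA1 (YMR235C), of 655 named genes that met the same condition. Each had 2 probes on the platform and was read by 1 of them, with a value on all 6 arrays, while the other had none. GSP1, YRB1 and NTF2 had 2, 4 and 2 probes on the platform and a value on 0 arrays, so nothing is known here of the GTPase itself, its binding protein or its import factor.

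Ran is a small GTPase that sets the direction of traffic through nuclear pores. In yeast GSP1 encodes Ran, SRM1 encodes the chromatin-bound exchange factor that loads it with GTP in the nucleus, and RNA1 encodes the GTPase-activating protein that triggers hydrolysis in the cytoplasm. YRB1 encodes a Ran-GTP binding protein that assists RNA1, and NTF2 encodes the carrier that returns Ran-GDP to the nucleus. Import receptors release cargo when they meet Ran-GTP, whereas export receptors need it to hold cargo.

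Each pool was a mix of haploid strains from BY4742/BY4741. In a DAmP strain a cassette follows the coding sequence of 1 gene, so that the gene's mRNA ends in an artificial extension carrying the strain's barcode. SRM1 and RNA1 values therefore come from the strains whose own SRM1 or RNA1 copy was modified, not from the natural mRNAs. The reference pool carried a deletion of YEL068C, and the others a deletion of NAM7 (UPF1) or of NMD2 (UPF2). Both of these genes act in nonsense-mediated mRNA decay, the pathway that degrades mRNAs with premature stop codons or unusually long 3' untranslated regions. All pools were grown for 18 generations in G418 and nourseothricin (spelled nurseothricin in the labels). Each deletion was introduced in 1 cross, and the 2 arrays per pool are technical repeats begun from the cell material, so p-values cover only the spread between such repeats. None of the probes for YEL068C, NAM7 or NMD2 had a value, and the deletions were not checked here. RNA1 lies on the same chromosome as NAM7, with 161 protein-coding genes between them in RefSeq assembly R64, and SRM1 shares a chromosome with none of the deleted genes.

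A value compares, as a log2 ratio, how strongly a barcode was read from RNA and from genomic DNA, with the median of 444 features (433 named genes and 11 unnamed probes valued on all 6 arrays) set to 0 on each array. A rise or a fall between pools is thus relative to that median, and a shift shared by most features would not be seen. Dividing by DNA takes out how common the strain is in the pool, but a change in the RNA signal and a change in the DNA signal cannot be told apart in the ratio. The direction RNA over DNA is likely rather than stated. In the deposited sign all 9 measured genes of a list of abundant mRNAs lay below 0 in the YEL068C pool (median -4.46), against 57.0% of all features, and the sign was turned accordingly. With the other direction every increase below would be a decrease, every rank from the top a rank from the bottom and every share of features below a gene a share above it.

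In the YEL068C pool, where decay is intact, both genes had ratios near the middle of the measured features. Features were read by different probes, so a rank of ratios within a pool need not follow mRNA amount. SRM1 had values of -0.13 and -0.34 on the arrays numbered 1 and 2, a mean of -0.24 ± 0.15 (SD, n = 2) with 43.0% of features below it. RNA1 had 0.40 and -0.17, a mean of 0.12 ± 0.40 with 52.7% of features below it. The arrays of RNA1 thus lay on both sides of the array median, 0.56 apart, where the median gap over all features was 0.40.

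In the NAM7 pool SRM1 had values of 0.58 and 0.57, with a mean of 0.58. RNA1 had 1.50 and 1.29, with a mean of 1.40 ± 0.14 that placed it at rank 87 of 444 from the top, compared with rank 210 in the reference pool. In the NMD2 pool SRM1 had 0.86 and 0.79 (mean 0.82 ± 0.05, rank 137 against 253 in the reference pool) and RNA1 0.96 and 1.20 (mean 1.08 ± 0.17, rank 113). For both genes the 4 mutant arrays lay above both reference arrays without overlap, which was so for 22.1% of all features. The 2 genes were read by different probes, so their levels are not set against each other, and the ranks of level within a pool carry the same limit.

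**Figure D1:**
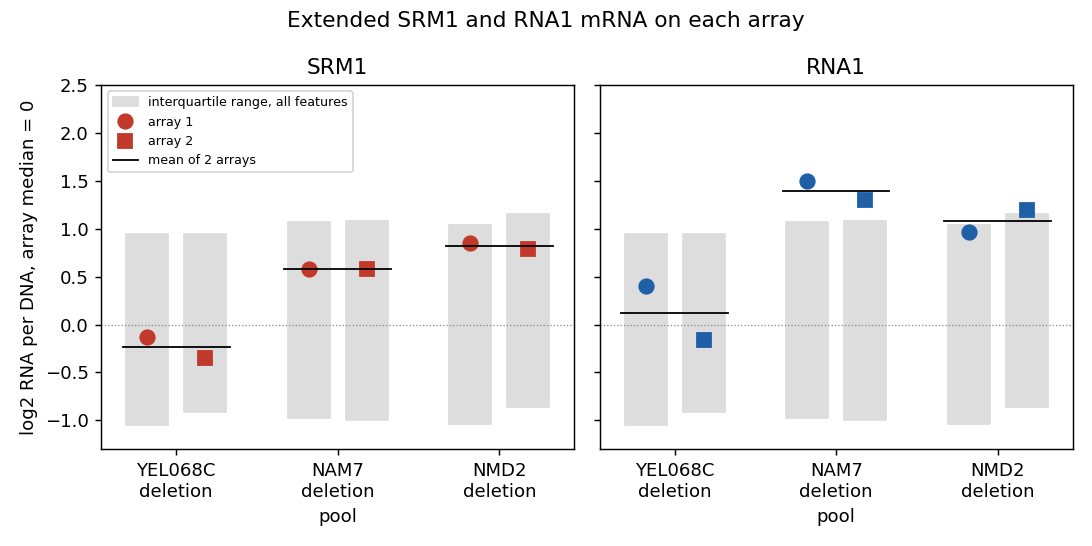
Log2 RNA per DNA of the extended SRM1 (left) and RNA1 (right) mRNA on each array, with the array median at 0. Circles are arrays numbered 1, squares arrays numbered 2, black lines the mean of the 2 arrays of a pool and grey bars the interquartile range of all 444 features on that array. Mutant arrays lie above both YEL068C arrays for each gene, and the YEL068C arrays of RNA1 (0.40 and -0.17) are farther apart than those of SRM1.

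Setting the mutant pools together against the reference asks how far extended mRNAs depend on nonsense-mediated decay for their relative level. RNA1, the GTPase-activating protein gene, was higher by 1.12 on the log2 scale (SE 0.24, n = 4 against 2 arrays), a 2.18-fold difference, and it ranked 21st of 444 features by size of increase. SRM1, the exchange factor gene, was higher by 0.94 (SE 0.20), a 1.92-fold difference, and ranked 35th. Without a term for the replicate number neither passed the threshold of 0.05, with adjusted p = 0.0594 for RNA1 and 0.0552 for SRM1 (limma, Benjamini-Hochberg over 444 features), and 4.05% of features passed in either direction. Same-numbered arrays of the 3 pools deviated together. With that number as a block both genes rose, RNA1 with SE 0.15 and adjusted p = 5.82e-05 and SRM1 with SE 0.12 and adjusted p = 3.65e-05 (limma). The blocked fit leaves 2 residual degrees of freedom per feature and borrows 10.7 from the spread of all features, on which these p-values largely rest.

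With the block 29.7% of all features rose in this comparison, so the 2 genes stand among 132 that did. The genes were grouped with their increases already known, so their count adds nothing to that share. Within the arrays numbered 1 the difference was 0.83 for RNA1 and 0.85 for SRM1, and within those numbered 2 it was 1.41 and 1.03. The values of SRM1 from the 2 array sets were thus closer to each other than those of RNA1. Leaving out YEL068C replicate 1 raised the RNA1 difference to 1.41 and leaving out YEL068C replicate 2 lowered it to 0.84.

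Taken one pool at a time, both genes had positive differences in each mutant pool. SRM1 was higher by 1.06 (SE 0.23) in the NMD2 pool and by 0.81 (SE 0.23) in the NAM7 pool. RNA1 was higher by 0.96 (SE 0.28) in the NMD2 pool and by 1.28 (SE 0.28) in the NAM7 pool, the latter ranked 11th of 444. Both comparisons use the same YEL068C arrays. By limma without the block 0 features (0%) passed in either pool. Of the 444 features, 99 had an unadjusted p under 0.05 for NMD2 and 91 for NAM7 in that fit.

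With the block SRM1 rose in the NMD2 pool (adjusted p = 7.60e-05 in limma) and in the NAM7 pool (0.000416), and so did RNA1 (0.000684 and 9.17e-05). Of all features, 28.4% rose in the NMD2 pool and 25.7% in the NAM7 pool under that fit. The RNA1 increase in the NMD2 pool was 0.56 within arrays numbered 1 and 1.36 within arrays numbered 2, the widest split among these values. It did not pass with the block when NMD2 replicate 2 was left out (0.66, adjusted p = 0.0661 in limma).

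Setting NMD2 directly against NAM7 asks whether the 2 decay factors have a like effect on these mRNAs. The difference of NMD2 from NAM7 was 0.24 for SRM1 (95% interval -0.30 to 0.79) and -0.32 for RNA1 (-0.99 to 0.36). Neither passed, with adjusted p = 1 for each in limma, and with the block the values were 0.473 for SRM1 (interval -0.05 to 0.54) and 0.466 for RNA1 (-0.70 to 0.07). Within arrays numbered 1 and 2 SRM1 stood at 0.28 and 0.22 and RNA1 at -0.54 and -0.10. The RNA1 value rests on single arrays, being -0.005 without NMD2 replicate 1 and -0.62 without NMD2 replicate 2 in the fit with the block. Whether SRM1 and RNA1 differ from each other in this comparison was not tested. Over all 444 features 0 (0%) passed between these pools with or without the block. An unadjusted p under 0.05 in limma was found for 55 of the 444 with the block and for 2 without it. A missed threshold does not show that the pools are alike for either gene.

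**Figure D2:**
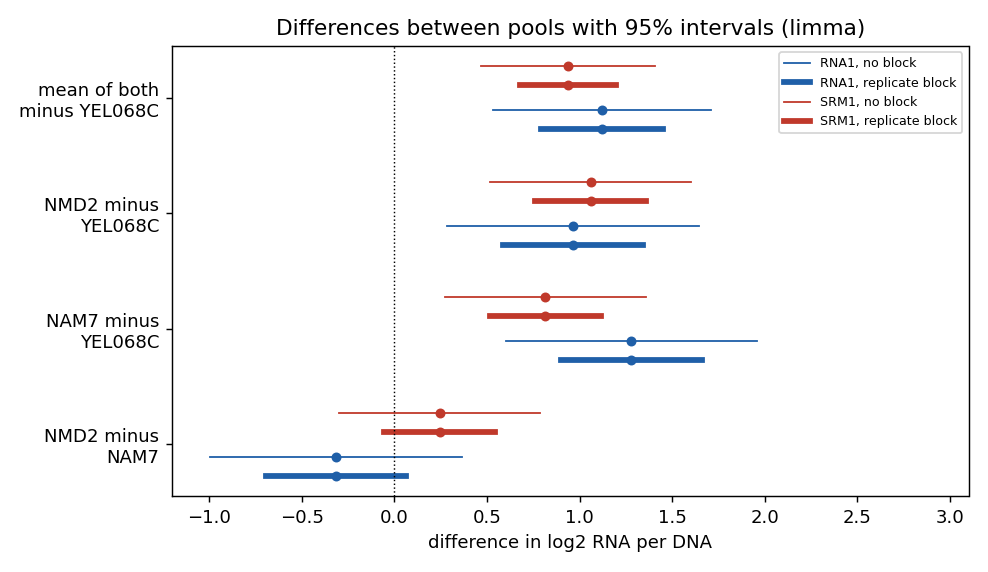
Differences in log2 RNA per DNA between pools for SRM1 (red) and RNA1 (blue). Points are estimates and lines 95% intervals from limma, not adjusted for the number of features, thin without and thick with the replicate number as a block. Every interval against YEL068C lies above 0, and the intervals of NMD2 minus NAM7 include 0.

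Coding length was set beside the differences because the study is known to have related it to the decay of extended mRNAs. SRM1 has 1449 and RNA1 1224 nucleotides, so both belong to the class over 1000 and up to 1500 nucleotides, which held 109 measured genes with a median difference of 0.25 in the mean of both mutant pools. With the block 49 genes of that class rose (45.0%), 13 fell and 47 did not pass. RNA1 lay 0.87 above the class median and was 6th of the 109, and SRM1 lay 0.69 above it and was 10th. Because the genes were grouped with their increases already known, their excess over genes of like length and their ranks there are a description only. In the NAM7 pool alone RNA1 was 2nd of the class and SRM1 12th. In the NMD2 pool SRM1 was 7th and RNA1 10th, but RNA1 was 29th there in arrays numbered 1 and 5th in arrays numbered 2.

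Both genes also exceeded the median of the class below them in length, 0.43 for 106 genes over 500 and up to 1000 nucleotides. Set against a smoothed trend on length instead of the class, the excess was 0.91 for RNA1 and 0.83 for SRM1. In arrays numbered 1 the excess over the class was 0.62 for RNA1 and 0.64 for SRM1, and in arrays numbered 2 it was 1.15 and 0.77. Among the Ran cycle genes without values, GSP1 (660 nucleotides), YRB1 (606) and NTF2 (378) are all shorter than SRM1 and RNA1.

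**Figure D3:**
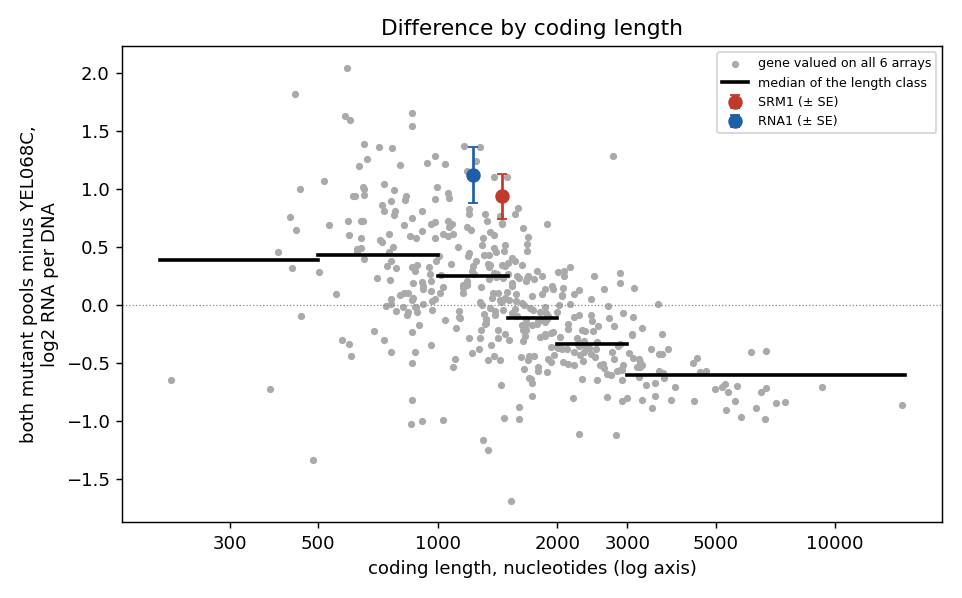
Difference between both mutant pools and the YEL068C pool in log2 RNA per DNA against coding length on a log axis, for 433 named genes. Black lines are the medians of 6 length classes, and SRM1 and RNA1 are shown with their SE without the block. Both, grouped with their increases already known, lie above the median of their class, 0.25.

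None of the 16 other nuclear transport genes valued on all 6 arrays was as much higher in the mutant pools as SRM1 and RNA1. SUB2 was lower by more than either was higher. Of 75 listed karyopherins, pore proteins, mRNA export factors and further Ran-related genes, 16 had values on all 6 arrays. Their median difference in the mean of both mutant pools was -0.24, with a highest value of 0.35, against a median of 0.00 for all features. RNA1 and SRM1 were 1st and 2nd of the 18 transport genes in order of difference. They were grouped with their increases already known, so this order is a description only. With the block 1 of the 16 rose, 6 fell and 9 did not pass, where 29.7% of all features rose and 30.2% fell. Without it 0 passed in either direction in limma.

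The gene that rose with the block was DBP5, the RNA helicase that strips export factors from mRNA at the pore (0.35, adjusted p = 0.0225 in limma with the block). DBP5 has the same coding length as SRM1, 1449 nucleotides, and a smaller difference. Among the 6 mRNA export genes, SUB2, a helicase of the export-coupling complex, fell by 1.25, the gene of the shuttling RNA-binding protein HRP1 by 0.88 and the export adaptor gene YRA1 by 0.69 with the block. SUB2 (1341 nucleotides) lies in the length class of SRM1 and RNA1.

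Karyopherin and pore protein genes had differences between -0.70 and 0.19. Of 4 karyopherins the import receptor gene MTR10 fell by 0.52 with the block. The others did not pass, CSE1, which exports importin alpha with Ran-GTP, at 0.19, importin alpha itself (SRP1) at 0.02 and PSE1 at -0.20. SRP1 was also on the short list of further Ran-related genes, whose other measured member was YRB2, a Ran-GTP binding protein of export (0.05), and neither passed. Of 5 pore genes NUP145 fell by 0.70 and NUP1 by 0.49 with the block, and NUP57, NUP49 and NUP85 did not pass. The karyopherin and pore genes other than NUP49 are longer than 1500 nucleotides, and the length classes above that bound had medians of -0.11, -0.34 and -0.60.

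Small GTPases outside the Ran cycle gave another comparison, since SRM1 and RNA1 regulate a GTPase. Of 34 listed GTPases and regulators 8 had values on all 6 arrays, with a median of -0.16. With the block 2 of them rose and 3 fell, where 29.7% of all features rose and 30.2% fell. The increases were those of the Rab GTPase gene YPT1 (0.94) and of BET4 (0.68). BET4 encodes a subunit of the enzyme that attaches lipid to Rab proteins. With 1071 nucleotides BET4 lies in the length class of SRM1 and RNA1, as do SEC12 and CDC43, which did not pass. The decreases were those of the exchange factor genes SEC2 (-0.43) and CDC24 (-0.52) and the Ras GTPase-activating protein gene IRA1 (-0.71). The exchange factor gene SEC12, close to SRM1 in length with 1416 nucleotides, stood at 0.11 and did not pass, nor did CDC43 (-0.05) and MRS6 (-0.28). Without the block 0 of the 8 passed in limma.

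**Figure D4:**
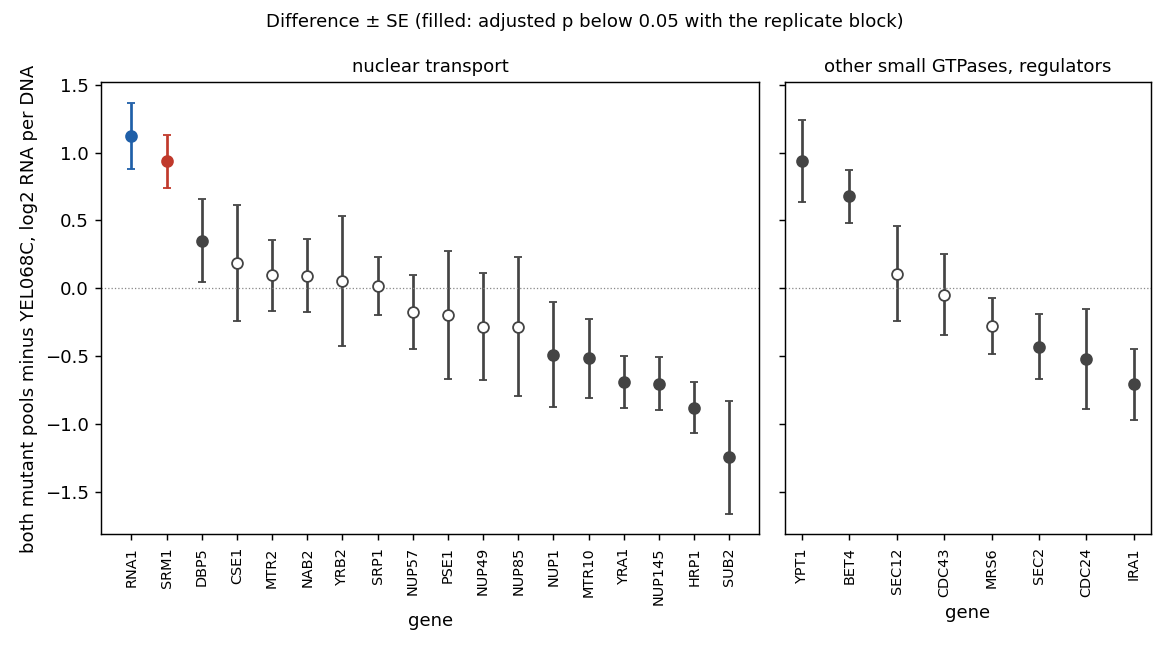
Difference between both mutant pools and the YEL068C pool in log2 RNA per DNA, with SE without the block, for 18 nuclear transport genes (left) and 8 other small GTPases and regulators (right), each in order of size. Filled points passed 0.05 with the replicate block, open points did not. RNA1 (1.12) and SRM1 (0.94), grouped with their increases already known, stand at the top of the transport genes, above DBP5 (0.35).

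The array profiles of SRM1 and RNA1 were matched against all other features by the root mean square distance over the 6 arrays, each gene centred on its own mean. For SRM1 the nearest were POL30, which encodes the replication clamp (distance 0.090), the ubiquitin-conjugating enzyme gene UBC1 (0.11) and the kinetochore gene NSL1 (0.12), where the median distance was 0.56. For RNA1 they were the thymidylate kinase gene CDC8 (0.13), the splicing factor gene AAR2 (0.18) and SHR3 (0.18), which encodes a chaperone of amino acid permeases, against a median of 0.65. Each of these named neighbours also rose with the block in the mean of both mutant pools, as did 29.7% of all features. They were picked for nearness on the same 6 arrays, so their rise follows largely from that choice and adds nothing to that share. Whether nearness goes with a shared function was not tested. RNA1 and SRM1 were 0.28 apart, so that SRM1 was 19th in the order of features nearest to RNA1 and RNA1 47th in the order nearest to SRM1.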

How the data were processed

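The deposited table holds values made by the authors and read here as log2 ratios of Cy3 (RNA) and Cy5 (genomic DNA) barcodes, per the labels' protocols. Log base, numerator, scaling and the filter that leaves most probes empty are not given in the sources used here. Deposited columns have a median of 0, and 658 to 798 of 15743 probes had a value per array. Of the 843 probes with a value the platform table named 1 gene for 827, several for 0 and none for 16. Up and down tags were not told apart. Scanner intensities were not analysed here, and the number of arrays limits the precision.

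Values were turned in sign, averaged per gene over probes valued on all 6 arrays and centred per array. limma 3.58.1 in R 4.3.3 was fitted to all 444 features with 1 term per pool (two-sided, Benjamini-Hochberg threshold 0.05) and tested on simulated data. Deviations of same-numbered arrays, numbered in the titles, correlated between pools with 0.89, 0.85 and 0.89, over the limit of 0.1 for treating numbers as pairs. Coding length is the gene span in RefSeq R64 (introns included), and 96.8% of spans are multiples of 3. From each list up to 4 genes per direction that passed with the block were named, and per member the 3 nearest profiles. Other list genes named in the text were chosen after their values were seen. The members and lists were chosen with earlier results of these data known.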

Additional observations from a re-analysis of the deposited data

How the results depend on the processing

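The SRM1 and RNA1 differences from the YEL068C pool stayed above 0 under all 18 alternatives run for each comparison. For both genes every mutant array lay above both reference arrays, so leaving one out without the block could not turn the sign. The block itself leaves the full-data estimates unchanged, so the kept sign is a weak check. For the mean of both mutant pools, SRM1 (0.94) and RNA1 (1.12) passed with the replicate block, and SRM1 also after quantile normalization (0.92, adjusted p = 0.0494 in limma). Over the alternatives without the block adjusted p ran from 0.0494 to 0.309 for SRM1 and from 0.0552 to 0.332 for RNA1. Leaving out one array gave 0.83 to 1.04 for SRM1 and 0.84 to 1.41 for RNA1 without the block, and 0.85 to 1.03 and 0.83 to 1.41 with it. In the NMD2 pool the blocked values were 1.06 (leave-one-out 0.97 to 1.15; 0.95 to 1.17 without the block) and 0.96 (0.66 to 1.27; 0.68 to 1.25), and in the NAM7 pool 0.81 (0.73 to 0.91; 0.71 to 0.92) and 1.28 (0.99 to 1.57; 0.998 to 1.56). Between the mutant pools no alternative passed for either gene. Leaving out one array there gave 0.18 to 0.31 for SRM1 and -0.62 to -0.005 for RNA1 with the block, and 0.21 to 0.28 and -0.43 to -0.20 without it, so the RNA1 direction is not settled. Blocked fits without one array leave 1 residual degree of freedom.

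The count of features past the threshold, 18, became 266 with the replicate block, 0 without centring and 0 with features valued on at least 1 array per pool. Leaving out one array gave 0 to 9 without the block, with 0 when either YEL068C or either NMD2 array was left out, and 195 to 247 with it. The excess over the length class became 0.83 for SRM1 against the smoothed trend and 1.15 for RNA1 in arrays numbered 2. With the replicate block 1 transport gene rose and 6 fell, and 2 small GTPase genes or regulators rose and 3 fell, against 0 each without it. The cause of these shifts was not tested.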

Other observations

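Transport genes with a value on 4 or 5 of the 6 arrays were fitted among 587 features with at least 1 array per pool. NUP192 (-0.86, SE 0.36, 4 arrays), NUP82 (-0.73, SE 0.46, 5 arrays), BRL1 (-0.55, SE 0.25, 5 arrays), KAP95, the importin beta that Ran-GTP releases from cargo (-0.50, SE 0.25, 5 arrays), and NIC96 (-0.32, SE 0.34, 5 arrays) all had negative estimates in the mean of both mutant pools. None passed, with adjusted p from 0.246 to 0.596 in limma.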
